A study of Mus musculus with 12 samples.

Results

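The genes described here are the hypoxia-inducible genes and the regulators of hypoxia-inducible factor (HIF) in mouse CD8+ cytotoxic T lymphocytes (CTL) with and without the transcription factor FOXO1. They are a list of 37 gene symbols of known roles, put together with earlier results of these data in view. Of these, 36 were found among the 13283 genes of the deposited expression table, and Adm was not. The mRNA was measured by RNA sequencing in 4 groups of 3 libraries, given in FPKM, that is, read fragments scaled to the length of the gene and the depth of the library. WT CTL came from mice that carried the GzmB cre transgene alone, and FOXO1-GFP KO CTL from FOXO1-GFPfl/fl GzmB cre+ mice, so both genotypes carried Cre. All mice were female and aged 11 to 27 weeks. Single-cell suspensions of lymph nodes or spleens were activated for 48 h with antibodies to CD3 and CD28. The cultures were then expanded with IL-2 (20 ng/mL) plus IL-12 (2 ng/mL), and CD8+ cells were sorted from them at the end. For the last 24 h, CTL of each genotype were held either in vehicle or in 10 µM IC87114, an inhibitor of the PI3K p110δ catalytic subunit (PI3Kdi). The study asked which mRNAs depended on FOXO1 and how inhibition of PI3K p110δ, which frees FOXO1 from inhibitory phosphorylation, changed them.

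Several features limit these groups as a model. Cre was driven by the granzyme B promoter, which is active in effector T cells, and removed the floxed exon 2 that holds the EGFP sequence, so reads from other exons still count towards Foxo1. FOXO1-GFP KO cells were sorted as DAPI−CD8+GFP− and WT cells as DAPI−CD8+, and the difference in the gate cannot be told apart from the genotype. The study calls the 3 libraries of a group biological replicates, and the sources do not say whether libraries of the same number with and without PI3Kdi came from the same mouse. In bulk RNA, fewer cells of a type and less of an mRNA per cell cannot be told apart.

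HIF is a heterodimer whose α subunit is made continuously and destroyed while oxygen is present. Prolyl hydroxylases of the EGLN family mark the α subunit, the VHL ubiquitin ligase recognises the mark, and an asparaginyl hydroxylase encoded by Hif1an blocks the transactivation domain. When the hydroxylases are inactive, HIF binds a short core, ACGTG or GCGTG, in the promoters and enhancers of genes for glycolysis, mitophagy, collagen modification and angiogenesis. Activated CTL also hold HIF-1α through antigen receptor and cytokine signals at normal oxygen, and several of its targets, Egln3 among them, act back on the pathway.

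The promoters of the members with the largest falls in FOXO1-GFP KO CTL are shown with those of 2 members whose mRNA hardly differed, so that the HIF core can be read in each. The windows are RefSeq's on GRCm38.p6, from 250 bases before to 50 bases after the most upstream start of the gene, written 5′ to 3′ on the strand of the gene. Capitals mark ACGTG or GCGTG and their reverse complements. Ak4, Egln3, P4ha2 and Slc16a3 fell in FOXO1-GFP KO CTL, and Egln2 and Jmjd6 are the contrast.
Ak4, chr4:101419039-101419338, plus strand: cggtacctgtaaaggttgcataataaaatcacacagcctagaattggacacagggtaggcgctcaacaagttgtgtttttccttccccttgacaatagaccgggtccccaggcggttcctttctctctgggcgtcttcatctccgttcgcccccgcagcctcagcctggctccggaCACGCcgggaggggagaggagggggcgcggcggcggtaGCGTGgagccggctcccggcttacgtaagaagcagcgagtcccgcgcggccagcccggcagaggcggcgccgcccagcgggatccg
Egln3, chr12:54203825-54204124, minus strand: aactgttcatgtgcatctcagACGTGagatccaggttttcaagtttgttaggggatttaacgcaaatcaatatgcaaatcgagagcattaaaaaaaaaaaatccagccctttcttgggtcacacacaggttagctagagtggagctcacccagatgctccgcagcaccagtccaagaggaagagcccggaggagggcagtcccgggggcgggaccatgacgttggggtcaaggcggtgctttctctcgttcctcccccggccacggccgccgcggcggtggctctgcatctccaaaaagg
P4ha2, chr11:54100674-54100973, plus strand: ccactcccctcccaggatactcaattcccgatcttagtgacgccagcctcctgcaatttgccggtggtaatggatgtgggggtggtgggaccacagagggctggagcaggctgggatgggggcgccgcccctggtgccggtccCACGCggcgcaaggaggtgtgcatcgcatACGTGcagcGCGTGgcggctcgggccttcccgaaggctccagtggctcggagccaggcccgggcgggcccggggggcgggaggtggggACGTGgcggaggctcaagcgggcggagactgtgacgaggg
Slc16a3, chr11:120948817-120949116, plus strand: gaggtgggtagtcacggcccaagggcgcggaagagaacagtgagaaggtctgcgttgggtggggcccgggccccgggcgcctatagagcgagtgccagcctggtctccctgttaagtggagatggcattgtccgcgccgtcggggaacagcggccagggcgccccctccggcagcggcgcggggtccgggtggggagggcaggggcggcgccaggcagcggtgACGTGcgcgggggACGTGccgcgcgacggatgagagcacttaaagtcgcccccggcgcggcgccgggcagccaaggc
Egln2, chr7:27166753-27167052, minus strand: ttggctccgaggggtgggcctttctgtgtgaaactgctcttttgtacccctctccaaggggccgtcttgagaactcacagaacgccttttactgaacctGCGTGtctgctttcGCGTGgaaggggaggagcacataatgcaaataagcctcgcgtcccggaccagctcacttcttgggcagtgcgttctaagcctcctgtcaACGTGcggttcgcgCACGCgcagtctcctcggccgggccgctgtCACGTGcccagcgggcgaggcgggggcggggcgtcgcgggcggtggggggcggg
Jmjd6, chr11:116843400-116843699, minus strand: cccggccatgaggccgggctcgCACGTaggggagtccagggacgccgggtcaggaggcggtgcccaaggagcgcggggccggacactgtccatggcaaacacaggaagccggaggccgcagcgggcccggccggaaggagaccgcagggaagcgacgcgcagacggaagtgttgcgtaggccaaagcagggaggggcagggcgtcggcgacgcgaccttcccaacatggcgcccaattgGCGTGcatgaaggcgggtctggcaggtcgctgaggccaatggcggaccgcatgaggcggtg
An entry was found for 29 of the 36 members. At least a single copy of ACGTG or GCGTG, on either strand, stood in 24 of these 29 windows (82.8%), against 6161 of 9663 windows of genes in the expression table (63.8%) and 11848 of 27025 windows of all genes (43.8%). Counted separately, ACGTG was in 62.1% of the members' windows and 26.3% of those of the expression table, and GCGTG in 58.6% and 52.2%. A window with both counted for each. Among members that fell, ACGTG or GCGTG was in 7 of 7 windows and among the others in 17 of 22 (77.3%), and the window of Egln2 held the most copies of those printed, 3 of ACGTG and 3 of GCGTG. A copy of CACGTG, the palindromic E-box that holds an ACGTG on each strand, was in 10.3% of members' windows and 10.3% of windows of the expression table. The forkhead motif TGTTTAC, searched on both strands, was in 0 of 29 members' windows and in 2.43% of windows of the expression table. These are matches of letters in a short window and not sites of binding.

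The deletion was visible in every library. Foxo1 mRNA was at 9.99, 5.77 and 5.79 FPKM in the WT libraries and at 0.58, 1.08 and 1.44 FPKM in the FOXO1-GFP KO libraries, and with PI3Kdi at 10.5, 5.84 and 7.5 and 0.61, 1.06 and 1.75 FPKM. It fell 6.56-fold without PI3Kdi (limma adjusted p = 0.0148) and 6.79-fold with it (limma adjusted p = 0.00478). Read depth, worked out from the step between neighbouring low values, was 12.9 M to 48.0 M reads per library, and the middle gene held 282 to 1072 reads. All 9 CD8 T cell markers were in the table, with a summed level of 9241 to 13346 FPKM, against 4.96 to 8.24 FPKM for the 3 of 4 CD4 markers in it. Of the other marker lists, 4 of 10 myeloid genes were in the table at 16.7 to 29.0 FPKM in sum, and 0 of 6 erythroid genes were. WT replicate 1 and WT+PI3Kdi replicate 1 stood apart in the balance of long over short genes. Their deviation from the gene means was higher for long than for short genes by 0.68 and 0.56 on the log2 scale, where the other 10 libraries lay between -0.50 and 0.32. FOXO1-GFP KO replicate 3 and FOXO1-GFP KO+PI3Kdi replicate 3 had the highest shares of FPKM from mitochondrial genes, 6.12% and 6.80%, and no library was under 3.11%. Results without these libraries stand beside the counts that rest on them.

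In FOXO1-GFP KO CTL a set of hypoxia-inducible mRNAs was lower than in WT CTL with and without PI3Kdi. The mRNA of the HIF-1α subunit itself did not pass the test used here, although the study names it among its FOXO1-dependent mRNAs. Without PI3Kdi, 6 of 36 members fell (16.7%), where 0.263% of all 13283 genes were called lower: Ak4, Egln3, P4ha2, Slc16a3, Plod2 and Bnip3. With PI3Kdi these 6 fell again and P4ha1, Zfp395 and Pdk1 joined them, making 9 of 36 (25.0%), where 1.02% of all genes were called lower. No member rose in either comparison, where 0.0678% and 0.437% of all genes were called higher. A gene was called where limma's p-value, adjusted by Benjamini-Hochberg over all 13283 genes, was under 0.05 and the fold change, on the scale of log2(FPKM + 0.1), was over 1.5. The log2 fold change was negative for 33 of 36 members without PI3Kdi (91.7%, against 52.7% of all genes) and for 28 with it (77.8%, against 49.0%). Its median over the members was -0.42 without and -0.36 with PI3Kdi, against -0.01 and 0.01 over all genes. Markers of other cells were also compared between genotypes. The 2 of 5 NK cell genes in the table, Klrb1c and Eomes, summed to 84.1 to 92.3 FPKM in WT and 98.6 to 114 FPKM in FOXO1-GFP KO libraries without PI3Kdi, and to 86.0 to 114 FPKM and 93.4 to 107 FPKM with it, and neither gene was called. The study counts Eomes among the transcription factors of CD8+ T cells, so this sum does not mark NK cells alone. The 5 of 10 B cell genes in the table summed to 19.3 to 25.8 FPKM in the 6 WT libraries and 8.51 to 11.7 FPKM in the 6 FOXO1-GFP KO libraries, and Cd79a, Ms4a1 and Pax5 were not among them. Ighm was called lower in both comparisons and Igkc with PI3Kdi, where it was listed at 0 in all 3 FOXO1-GFP KO libraries, and the part of these cells in the results was not tested.

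**Figure D1:**
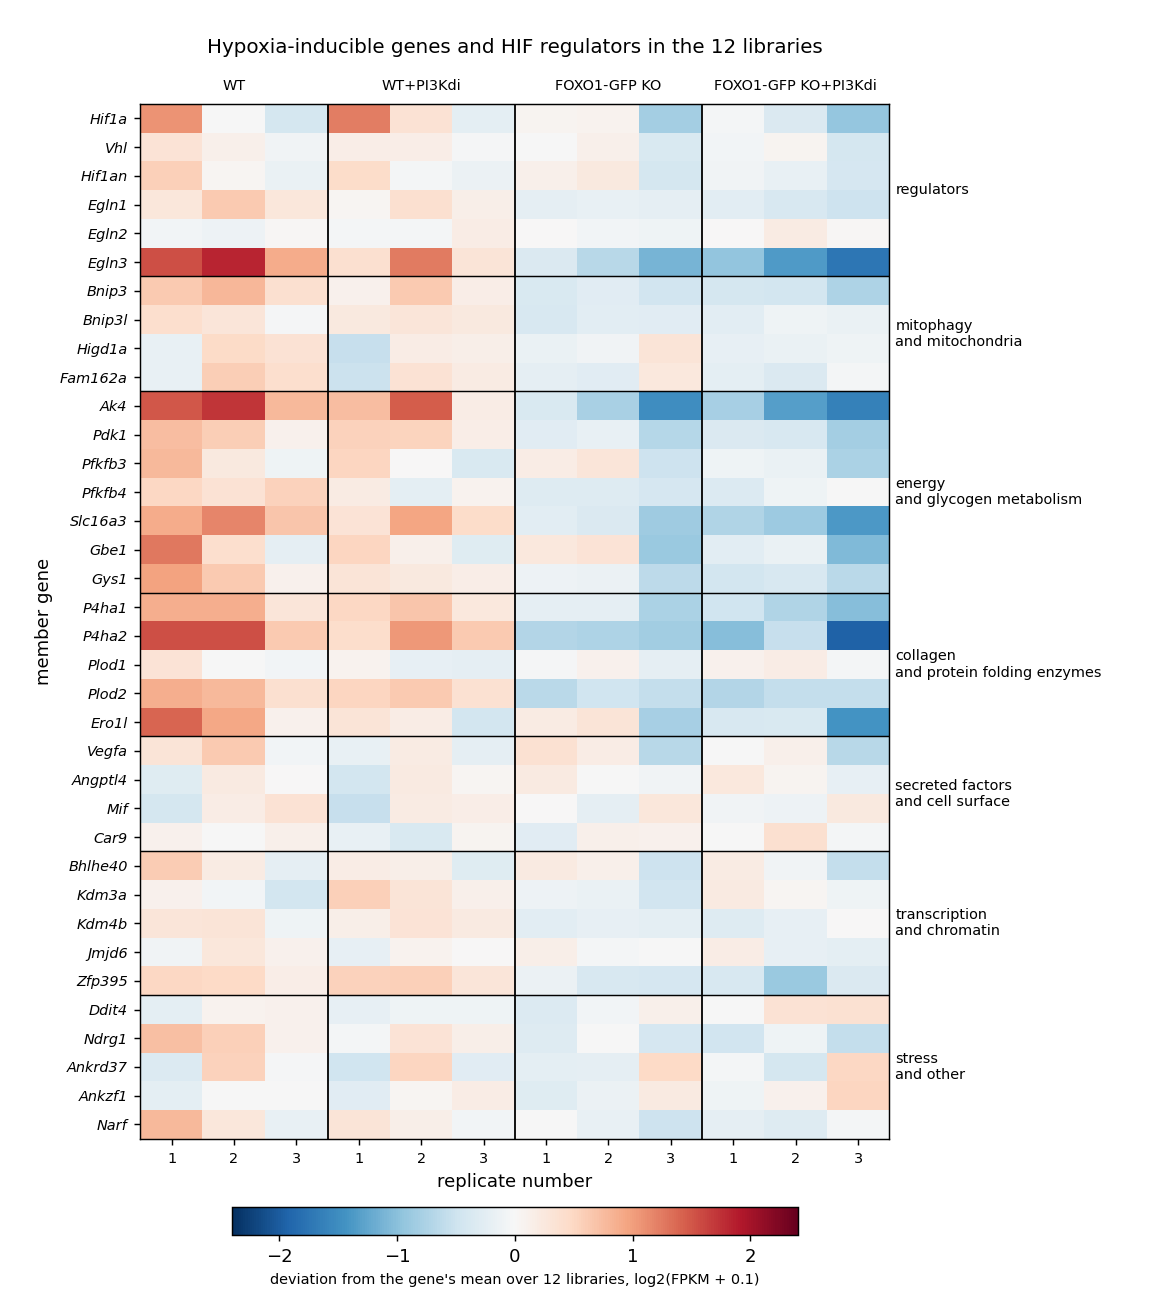
Heat map of the 36 members (rows, grouped by role) in the 12 libraries (columns, grouped by genotype and treatment), coloured by the deviation of log2(FPKM + 0.1) from the mean of the gene over all libraries. The rows of Egln3, Ak4, Slc16a3, P4ha2 and Plod2 change colour between the 6 WT and the 6 FOXO1-GFP KO libraries, while rows such as Egln2 and Jmjd6 stay pale throughout.

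**Figure D2:**
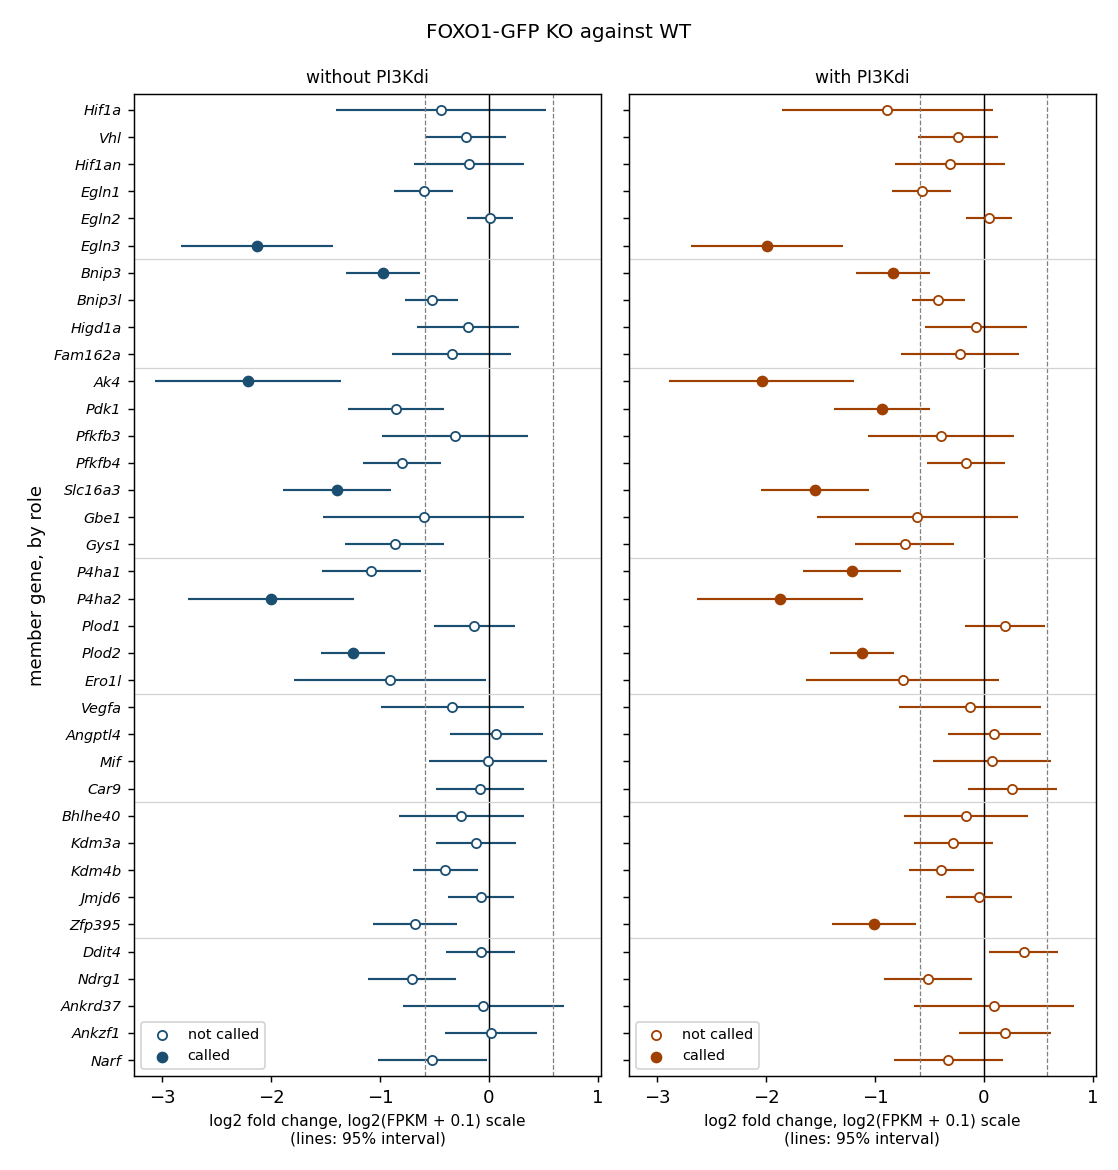
Log2 fold change of each member in FOXO1-GFP KO against WT CTL without PI3Kdi (left) and with PI3Kdi (right), with its 95% interval from limma. Filled points were called, 6 on the left and 9 on the right, all lower, and the dashed lines mark a fold change of 1.5 (0.58 on the log2 scale).

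Of the 6 regulators of HIF, Egln3 alone fell. Egln3 (chromosome 12, 54178981 to 54203860, minus strand, GRCm38), which encodes the prolyl hydroxylase PHD3 and is itself induced by HIF, was at 37.7, 45.5 and 23.7 FPKM in WT and 10.0, 7.98 and 5.84 FPKM in FOXO1-GFP KO CTL. With PI3Kdi the values were 16.7, 30.4 and 15.9 FPKM in WT and 6.60, 4.93 and 3.75 FPKM in FOXO1-GFP KO. The lowest WT library, at 15.9 FPKM, stood above the highest FOXO1-GFP KO library, at 10.0 FPKM. The fall was 4.39-fold without PI3Kdi (log2 fold change -2.13, 95% interval -2.83 to -1.44, limma adjusted p = 0.0158) and 3.98-fold with it (-1.99, -2.69 to -1.30, limma adjusted p = 0.00920).

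Egln1, which encodes the main oxygen-sensing prolyl hydroxylase PHD2, was lower in every FOXO1-GFP KO library, at 24.6 to 30.5 FPKM, than in every WT library, at 35.8 to 53.8 FPKM. Its log2 fold change was -0.60 ± 0.12 (SE, n = 3 against 3) without PI3Kdi (limma adjusted p = 0.0872) and -0.57 ± 0.12 with it (limma adjusted p = 0.0464), under the 1.5-fold minimum in the second case. Egln2, encoding the remaining family member PHD1, was level at 12.7 to 15.8 FPKM in all 12 libraries, with log2 fold changes of 0.01 (95% interval -0.20 to 0.22) and 0.05 (-0.16 to 0.26). The 3 hydroxylase mRNAs thus differed in their values: a several-fold fall of Egln3, a difference of Egln1 near 1.5-fold that did not pass the criteria, and an interval for Egln2 that lay within 1.5-fold either way.

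Hif1a, which encodes the oxygen-regulated subunit, was not called and spread widely between replicates. The study differs here: it names Hif1a among its FOXO1-dependent mRNAs, from genotypes compared with PI3Kdi by limma's voom on counts. In the fits made here with PI3Kdi, Hif1a was called in 0 of 9 alternatives (limma adjusted p = 0.0954 to 0.642). Why the results differ was not tested. Hif1a was at 76.7, 36.2 and 26.9 FPKM in WT and 38.0, 38.4 and 20.5 FPKM in FOXO1-GFP KO CTL. With PI3Kdi it was at 84.5, 46.2 and 30.8 FPKM and 35.3, 28.4 and 18.9 FPKM. The groups overlapped in both comparisons, and the log2 fold changes of -0.44 (95% interval -1.41 to 0.53) and -0.89 (-1.85 to 0.08) leave room for a fall of over 2-fold as well as for none. Its highest values were in WT replicate 1 and WT+PI3Kdi replicate 1, the libraries in which long genes stood high, and the part of that balance in its spread was not tested. Fits with the length trend removed were made after seeing the data, but their values for Hif1a are not given here. Vhl, whose product recognises hydroxylated HIF-α, was at 5.88 to 10.0 FPKM with log2 fold changes of -0.21 and -0.24, each ± 0.17 (SE). Hif1an, the asparaginyl hydroxylase, was at 4.77 to 9.60 FPKM with -0.18 and -0.31, each ± 0.23.

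Among the members that act in mitochondria, Bnip3 fell. Bnip3 (chromosome 7, 138890836 to 138909519), a receptor on the outer membrane that marks mitochondria for mitophagy, was at 131, 147 and 111 FPKM in WT and 65.1, 70.3 and 61.3 FPKM in FOXO1-GFP KO CTL. With PI3Kdi it was at 91.1, 129.9 and 94.0 FPKM in WT and 62.8, 62.2 and 50.2 FPKM in FOXO1-GFP KO. No FOXO1-GFP KO library reached a WT library, and it fell 1.96-fold without PI3Kdi (log2 fold change -0.97 ± 0.16 SE, limma adjusted p = 0.0239) and 1.78-fold with it (-0.83 ± 0.16, limma adjusted p = 0.0208). Its relative Bnip3l, also a mitophagy receptor, was at 14.7 to 18.1 FPKM in FOXO1-GFP KO and 19.0 to 25.6 FPKM in WT libraries without overlap, but its log2 fold changes of -0.53 (limma adjusted p = 0.0881) and -0.42 (limma adjusted p = 0.115) did not pass. Higd1a, a respiratory chain factor, and Fam162a, a mitochondrial protein induced by HIF, overlapped between genotypes, at 20.4 to 41.5 FPKM and 99.6 to 213 FPKM. Their log2 fold changes were -0.19 and -0.07 for Higd1a, and -0.34 and -0.22 for Fam162a.

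Of the 7 members in energy metabolism and glycogen storage, Ak4, Slc16a3 and Pdk1 fell. Ak4 (chromosome 4, 101419277 to 101466995), an adenylate kinase of the mitochondrial matrix, was at 3.65, 4.28 and 2.19 FPKM in WT and 0.93, 0.68 and 0.37 FPKM in FOXO1-GFP KO CTL, and with PI3Kdi at 2.11, 3.56 and 1.41 and 0.67, 0.43 and 0.33 FPKM, resting on 22 to 955 reads per library. Every FOXO1-GFP KO library was under 1 FPKM and every WT library over it, and Ak4 fell 4.64-fold without PI3Kdi (log2 fold change -2.21, 95% interval -3.06 to -1.36, limma adjusted p = 0.0414) and 4.11-fold with it (-2.04, -2.89 to -1.19, limma adjusted p = 0.0238).

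Slc16a3 (chromosome 11, 120948480 to 120960868), the lactate exporter MCT4, was at 44.4, 53.5 and 37.7 FPKM in WT and 19.9, 18.7 and 13.1 FPKM in FOXO1-GFP KO CTL. With PI3Kdi the values were 29.9, 45.9 and 32.2 FPKM and 14.5, 13.04 and 9.17 FPKM. The groups were apart in both comparisons, and Slc16a3 fell 2.63-fold (log2 fold change -1.39 ± 0.23 SE, limma adjusted p = 0.0261) and 2.93-fold (-1.55 ± 0.23, limma adjusted p = 0.00545). Pdk1 (chromosome 2, 71873224 to 71903858), the kinase that shuts pyruvate out of the mitochondrial tricarboxylic acid cycle, was at 19.4, 17.6 and 12.5 FPKM in WT and 9.62, 10.3 and 7.21 FPKM in FOXO1-GFP KO CTL, and with PI3Kdi at 17.1, 16.8 and 13.01 and 9.07, 8.83 and 6.55 FPKM. These libraries did not overlap either, yet Pdk1 passed only with PI3Kdi (-0.94 ± 0.20, limma adjusted p = 0.0460), against -0.85 ± 0.20 without it (limma adjusted p = 0.129).

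The remaining metabolic members were not called. Gys1, glycogen synthase, was at 3.47 to 5.03 FPKM in FOXO1-GFP KO and 5.89 to 10.9 FPKM in WT libraries, with log2 fold changes of -0.87 and -0.73 (limma adjusted p = 0.134 and 0.159). Gbe1, the glycogen branching enzyme, overlapped, with -0.60 and -0.61, each ± 0.42 (SE). The phosphofructokinase-2 isoenzymes Pfkfb3 and Pfkfb4 set the level of a glycolytic activator, and Pfkfb4, at under 1 FPKM everywhere, was lower in all 3 FOXO1-GFP KO libraries without PI3Kdi (0.41, 0.41 and 0.38 FPKM against 0.79, 0.70 and 0.83 in WT) but overlapped with it. Its log2 fold changes were -0.80 (limma adjusted p = 0.0867) and -0.16 (limma adjusted p = 0.779). Pfkfb3 overlapped in both comparisons at 2.14 to 6.43 FPKM, with -0.31 and -0.39.

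Among the members in collagen modification and protein folding, 3 of 5 fell, all of them hydroxylases. Plod2 (chromosome 9, 92542223 to 92608428), a lysyl hydroxylase, was at 17.9, 16.7 and 12.6 FPKM in WT and 6.14, 6.89 and 6.47 FPKM in FOXO1-GFP KO CTL, and with PI3Kdi at 13.8, 15.1 and 12.5 and 5.92, 6.45 and 6.45 FPKM. The 6 FOXO1-GFP KO libraries lay within 1 FPKM of each other, and Plod2 fell 2.37-fold without PI3Kdi (log2 fold change -1.25, 95% interval -1.54 to -0.95, limma adjusted p = 0.00436) and 2.17-fold with it (-1.12, -1.41 to -0.83, limma adjusted p = 0.00202). Plod1, a lysyl hydroxylase that is less tied to hypoxia, was at 0.60 to 0.92 FPKM in all libraries, with log2 fold changes of -0.13 and 0.19.

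P4ha1 and P4ha2, the catalytic subunits of prolyl 4-hydroxylase, both fell with PI3Kdi, from unequal levels. P4ha1 (chromosome 10, 59323296 to 59373304) was at 29.1, 29.1 and 19.6 FPKM in WT and 13.6, 13.7 and 9.33 FPKM in FOXO1-GFP KO CTL, and with PI3Kdi at 22.4, 25.3 and 19.0 and 11.4, 9.59 and 7.84 FPKM. It passed with PI3Kdi (-1.21 ± 0.21 SE, limma adjusted p = 0.0128) and missed the threshold without it (-1.08 ± 0.21, limma adjusted p = 0.0636, or 0.0407 with the replicate number as a block within genotype), although its groups did not overlap in either. P4ha2 (chromosome 11, 54100095 to 54131665) was at 2.04, 2.05 and 1.03 FPKM in WT and 0.35, 0.34 and 0.31 FPKM in FOXO1-GFP KO CTL, and with PI3Kdi at 0.88, 1.40 and 1.04 and 0.26, 0.40 and 0.09 FPKM. It fell (log2 fold change -2.00 ± 0.35, limma adjusted p = 0.04, without PI3Kdi and -1.87 ± 0.35, limma adjusted p = 0.0204, with it), but on 10 to 614 reads per library, and with the block it lost the call, at adjusted p = 0.188 and 0.109.

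Ero1l, an oxidase that forms disulphide bonds in the endoplasmic reticulum, was at 75.1, 53.9 and 30.3 FPKM in WT and 32.5, 34.8 and 16.3 FPKM in FOXO1-GFP KO CTL, and with PI3Kdi at 35.0, 32.0 and 20.9 and 21.5, 22.0 and 10.4 FPKM. Its log2 fold change of -0.91 was close to that of Bnip3, -0.97, but the groups overlapped and the limma adjusted p was 0.741.

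**Figure D3:**
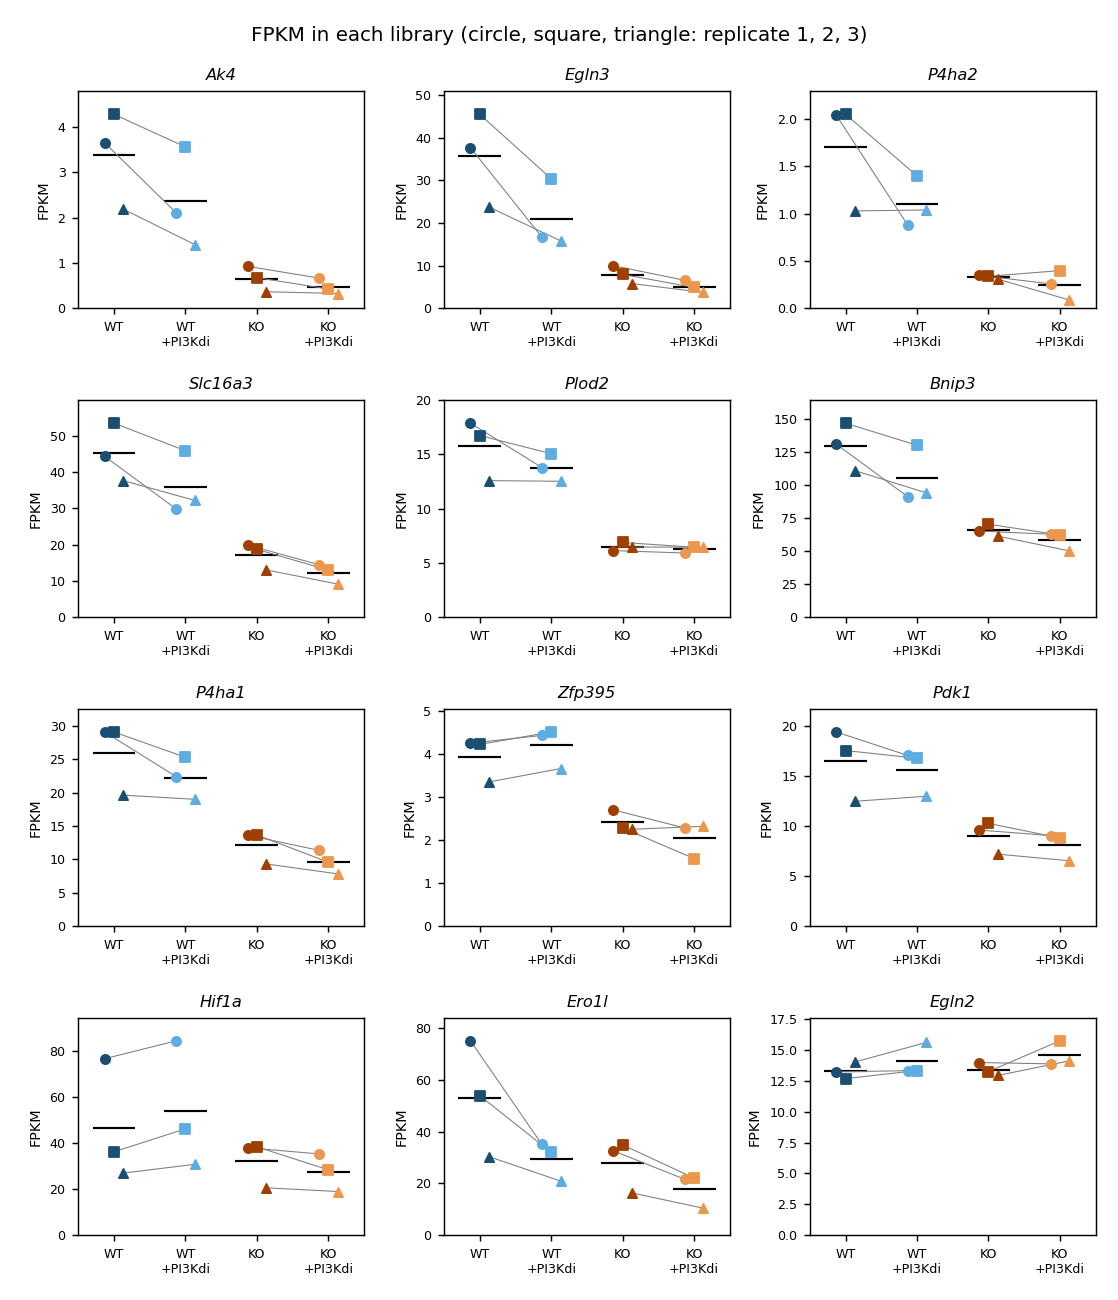
FPKM in every library of 12 members, one panel each, in WT, WT+PI3Kdi, FOXO1-GFP KO and FOXO1-GFP KO+PI3Kdi CTL. Circles, squares and triangles are replicates 1, 2 and 3, bars are group means, and grey lines join the same replicate number within a genotype. The 9 members that fell have every FOXO1-GFP KO library below every WT library, whereas Hif1a, Ero1l and Egln2 overlap.

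None of the 4 secreted or surface members was called. Vegfa, the angiogenic growth factor, was at 1.05 to 2.73 FPKM in all groups, with log2 fold changes of -0.34 and -0.13, each ± 0.30 (SE). Angptl4, a secreted inhibitor of lipoprotein lipase, was at 4.55 to 7.42 FPKM, and its intervals of -0.36 to 0.49 and -0.33 to 0.52 lay within 1.5-fold either way. Mif, a cytokine, was the most abundant member at 317 to 589 FPKM, with log2 fold changes of -0.01 and 0.08. Car9, a carbonic anhydrase of the cell surface and a classic hypoxia marker, was at 0.54 to 0.97 FPKM, with log2 fold changes of -0.08 and 0.26, each ± 0.19.

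Among 5 regulators of transcription and chromatin, Zfp395 fell with PI3Kdi and missed the threshold without it. Zfp395 (chromosome 14, 65358389 to 65398930), a zinc finger protein, was at 4.25, 4.22 and 3.35 FPKM in WT and 2.7, 2.28 and 2.25 FPKM in FOXO1-GFP KO CTL, and with PI3Kdi at 4.43, 4.51 and 3.66 and 2.28, 1.57 and 2.32 FPKM. The genotypes did not overlap, and the log2 fold change was -0.68 ± 0.18 without PI3Kdi (limma adjusted p = 0.177) and -1.01 ± 0.18 with it (limma adjusted p = 0.0137). Kdm4b, a histone demethylase, was at 3.96 to 4.94 FPKM in FOXO1-GFP KO and 4.58 to 6.21 FPKM in WT libraries, without overlap at matched treatment, and its log2 fold changes of -0.40 and -0.39 did not pass (limma adjusted p = 0.433 and 0.283). Kdm3a, another histone demethylase, Jmjd6, a nuclear hydroxylase, and Bhlhe40, a repressor highly expressed in effector T cells at 59.3 to 134 FPKM, overlapped in both comparisons. Their log2 fold changes without and with PI3Kdi were -0.12 and -0.28 for Kdm3a, -0.07 and -0.04 for Jmjd6, and -0.25 and -0.16 for Bhlhe40.

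In the group of stress and other genes, 0 of 5 members fell. Ndrg1, a stress-responsive gene, was at 8.54 to 12.7 FPKM in FOXO1-GFP KO and 12.3 to 21.2 FPKM in WT libraries, apart at matched treatment, with log2 fold changes of -0.71 (limma adjusted p = 0.185) and -0.51 (limma adjusted p = 0.3). Ddit4, an inhibitor of mTORC1, went the other way with PI3Kdi: 112, 143 and 144 FPKM in FOXO1-GFP KO, each above 97.8, 105 and 104 FPKM in WT CTL. Its log2 fold change of 0.37 ± 0.14 did not pass (limma adjusted p = 0.373), and without PI3Kdi it was -0.08 ± 0.14 with overlapping libraries. Ankrd37, Ankzf1, which acts in ribosome quality control, and Narf were at 1.47 to 5.64 FPKM and overlapped in both comparisons. Their log2 fold changes were -0.05 and 0.09 for Ankrd37, 0.01 and 0.19 for Ankzf1, and -0.52 and -0.33 for Narf.

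The spread over libraries divides the members further. In 12 of 36 (33.3%, against 1.77% of all genes), all 6 FOXO1-GFP KO libraries lay below all 6 WT libraries, and none lay above (0.896% of all genes): the 9 that fell, and Egln1, Bnip3l and Gys1. At matched treatment, 15 members (41.7%, against 6.79% of all genes) stood apart without PI3Kdi and 14 (38.9%, against 7.90%) with it, in each case lower in FOXO1-GFP KO, and Ddit4 stood apart upwards with PI3Kdi (6.85% of all genes did, and 3.54% without it, where no member did). In 20 members the libraries overlapped in both comparisons. The interval of the log2 fold change lay within 1.5-fold either way in both comparisons for Egln2, Angptl4, Jmjd6 and Plod1. For the other members that were not called, the interval reached a change of 1.5-fold in at least 1 comparison.

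The count without PI3Kdi turned on single libraries. Plod2 was called whichever library was left out (limma adjusted p = 0.00118 to 0.0446). It was the only member called without WT replicate 1, WT replicate 2, FOXO1-GFP KO replicate 2 or FOXO1-GFP KO replicate 3, and Egln3 joined it without FOXO1-GFP KO replicate 1. Without WT replicate 3, the library with the lowest FPKM of its group for all 9 members that fell, 9 members were called, with P4ha1, Bnip3l and Gys1 added. With PI3Kdi, Egln3 (limma adjusted p = 0.0174 to 0.0454), Slc16a3 (0.0122 to 0.0246) and Plod2 (0.00842 to 0.0129) were called whichever library was left out. Without WT+PI3Kdi replicate 1 the count was 6, without WT+PI3Kdi replicate 2 these 3 were the only members called, and 4 members were called without FOXO1-GFP KO+PI3Kdi replicate 2 or replicate 3. Pdk1 lost its call in all 6 of these fits (limma adjusted p = 0.0622 to 0.181). Leaving out a same-numbered WT or FOXO1-GFP KO pair of libraries at once gave 0 to 3 members without PI3Kdi, with 0 when FOXO1-GFP KO pair 1 or pair 2 was out, and 3 to 7 with it. The log2 fold change of each of the 9 members stayed negative in every such fit. The Foxo1 call without PI3Kdi was itself lost without WT replicate 1 or 2 or FOXO1-GFP KO replicate 1 or 2 (limma adjusted p up to 0.0760).

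In response to PI3Kdi, no member was called in WT CTL, where 0.0226% of all genes were called lower and 0.0753% higher, or in FOXO1-GFP KO CTL, where 0.00% and 0.0452% were. This fit called 3 genes lower and 10 higher in WT CTL. At the same thresholds the study reports many more mRNAs changed there. With the replicate block described below, 139 genes were called lower and 203 higher in WT CTL. Why the counts differ was not tested. At an unadjusted p under 0.05 there were 3 members in WT (Egln3 and Pfkfb4 lower, Kdm3a higher, against 2.28% and 2.86% of all genes) and 1 in FOXO1-GFP KO CTL (Ddit4, higher, against 1.71% lower and 3.46% higher). Voom on reads estimated from FPKM also called 0 and 0, where it called 0.0226% of all genes lower and 0.143% higher in WT, and 0.00% and 0.0377% in FOXO1-GFP KO CTL. Same-numbered libraries with and without PI3Kdi deviated together within each genotype, and with that number as a block limma called 2 members in WT and the same 2 in FOXO1-GFP KO CTL, Egln3 and Ero1l, both lower, where 1.05% and 0.964% of all genes were called lower and 1.53% and 1.82% higher. These calls rested on single pairs: with the block, the count in WT was 0 without WT pair 1 and 1 without WT pair 2, and in FOXO1-GFP KO CTL it was 1 without pair 1 and 0 without pair 2 or pair 3. The members had a median log2 fold change of -0.19 (WT) and -0.14 (FOXO1-GFP KO), against -0.04 and -0.02 over all genes. With PI3Kdi all 3 pairs were lower for 19 members in WT (52.8%, against 29.5% of all genes) and 18 in FOXO1-GFP KO CTL (50.0%, against 26.4%), and higher for 4 (11.1%, against 16.7%) and 5 (13.9%, against 23.1%).

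Egln3 was lower with PI3Kdi in each of the 6 pairs, from 37.7, 45.5 and 23.7 to 16.7, 30.4 and 15.9 FPKM in WT and from 10.0, 7.98 and 5.84 to 6.60, 4.93 and 3.75 FPKM in FOXO1-GFP KO CTL. The log2 fold changes were -0.78 and -0.63, each ± 0.14 (SE with the block, limma adjusted p = 0.00640 and 0.0178 with the block, 0.845 and 0.933 without). Ero1l was likewise lower in each of the 6 pairs, with -0.80 and -0.63, each ± 0.16 (limma adjusted p = 0.0122 and 0.0305 with the block, 1 and 0.933 without).

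Kdm3a went the other way, from 20.3, 18.0 and 13.8 to 28.1, 23.5 and 20.4 FPKM in WT and from 17.3, 16.9 and 13.6 to 22.0, 19.6 and 17.5 FPKM in FOXO1-GFP KO CTL, higher in each of the 6 pairs. With the block its adjusted p was 0.00211 and 0.0217, but its log2 fold changes of 0.47 and 0.31 were under the 1.5-fold minimum. Slc16a3 (log2 fold changes -0.34 and -0.49), Bnip3 (-0.31 and -0.17) and P4ha1 (-0.21 and -0.34) were lower on average with PI3Kdi in both genotypes, also under that minimum.

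**Figure D4:**
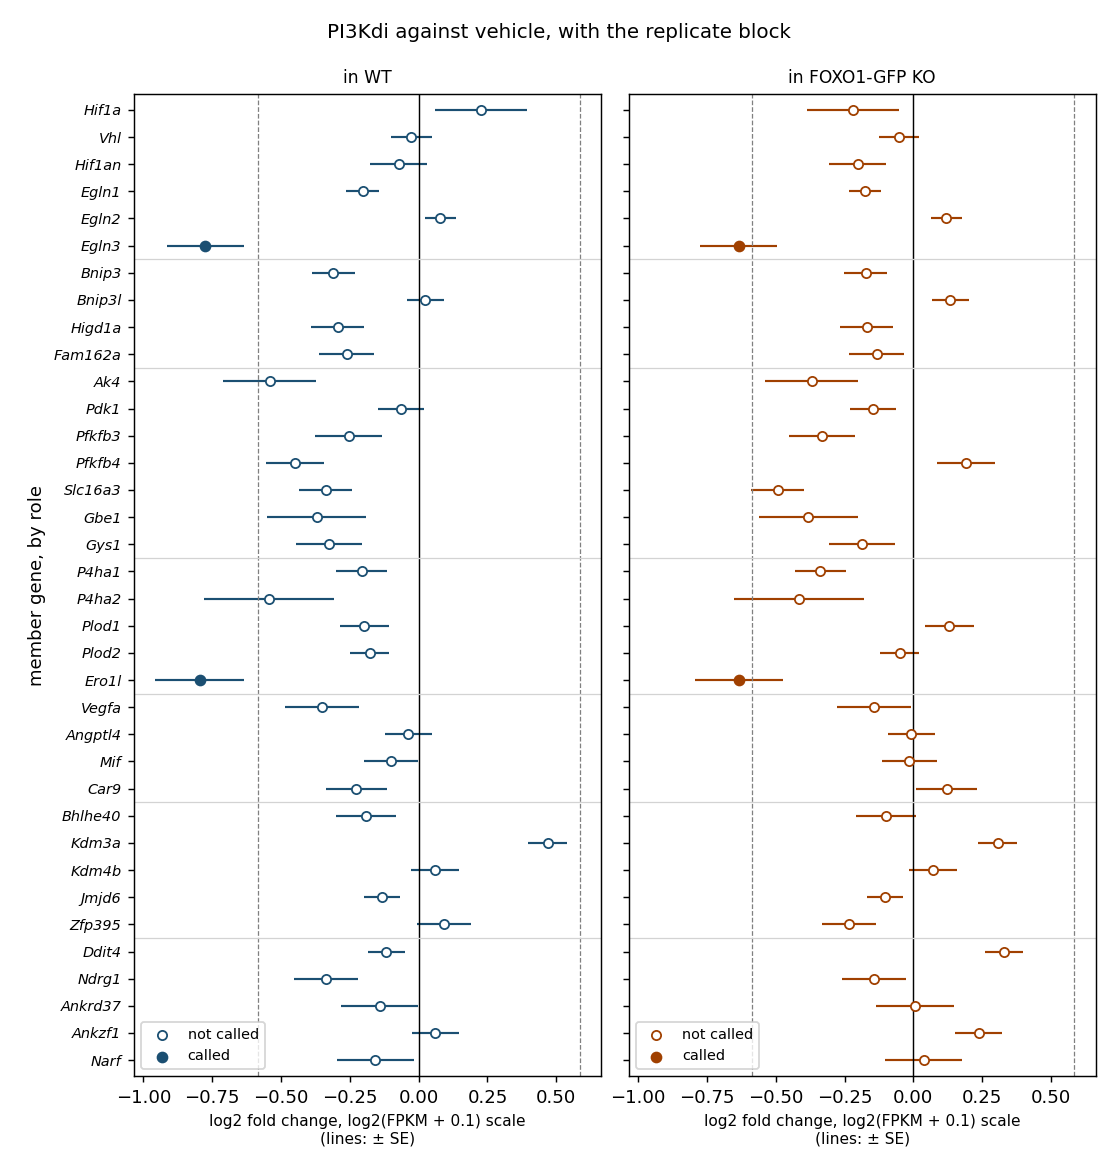
Log2 fold change of each member with PI3Kdi for both genotypes, with its standard error from limma with the replicate number as a block within genotype. Filled points were called in that fit, Egln3 and Ero1l in each genotype, and most members lie below 0 in both.

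The response to PI3Kdi was not shown to differ between genotypes for any member. The difference of the responses, tested by limma as an interaction, was called for 0 of 36 members, where 0.00% of all genes were called. The count was 0 with the block, where 0.0151% of all genes were called lower and 0.00753% higher, and 0 by voom, where 0.00% were. At an unadjusted p under 0.05 there was 1 member, Pfkfb4, with the larger value in FOXO1-GFP KO CTL, where 0.678% of all genes were lower and 0.828% higher. Its log2 fold change with PI3Kdi was -0.45 (WT) and 0.19 (FOXO1-GFP KO), a difference of 0.64 ± 0.23 (SE, limma adjusted p = 1). Hif1a was higher with PI3Kdi in all 3 WT pairs and lower in all 3 FOXO1-GFP KO pairs, but by only 0.23 and -0.22 on the log2 scale, a difference of -0.45 ± 0.62 (limma adjusted p = 1). Ddit4 differed by 0.45 ± 0.20 (limma adjusted p = 1, or 0.0966 with the block). For P4ha1, Zfp395 and Pdk1, called lower in FOXO1-GFP KO CTL with PI3Kdi only, the differences were -0.13, -0.33 and -0.08, so the genotype effect was not shown to differ with the inhibitor.

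Other genes of the pathway were tested in the same fit. All 13 genes of the HIF partners and the VHL ligase were in the table and none was called, with median log2 fold changes of -0.10 without and -0.07 with PI3Kdi. Elob, a subunit of the ligase and the most abundant of them, had 0.09 and 0.32. Of 16 genes for glucose uptake and glycolysis, all 16 had a negative log2 fold change in both comparisons (medians -0.25 and -0.32, where 52.7% and 49.0% of all genes were negative), and 0 were called without PI3Kdi and 2 with it. Called lower were 0.263% and 1.02% of all genes. Pfkl, the liver-type phosphofructokinase, fell with PI3Kdi from 21.8, 25.0 and 19.9 FPKM in WT to 12.7, 10.98 and 8.31 FPKM in FOXO1-GFP KO CTL (log2 fold change -1.07 ± 0.18, limma adjusted p = 0.0113). Without PI3Kdi its log2 fold change was -0.95 (limma adjusted p = 0.0591, or 0.0352 with the block). Tpi1, triosephosphate isomerase, fell from 269.6, 352 and 296 to 199, 199.9 and 157 FPKM (-0.72 ± 0.15, limma adjusted p = 0.0440). Aldoa, aldolase A and the most abundant, had -0.15 and -0.07 and was not called. Slc2a3, the glucose transporter GLUT3, named after its values were seen, was at 61.8, 50.8 and 25.8 FPKM in WT and 23.5, 19.2 and 10.9 FPKM in FOXO1-GFP KO CTL, and with PI3Kdi at 32.7, 38.7 and 21.5 and 18.7, 14.4 and 8.70 FPKM. Its libraries were apart at matched treatment, but the log2 fold changes of -1.35 and -1.17, each ± 0.39, did not pass (limma adjusted p = 0.269 and 0.251).

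Of 23 other hypoxia-inducible genes, 16 were in the table and none was called by genotype (medians -0.19 and -0.09), and Tfrc, the transferrin receptor and the most abundant, had -0.11 and -0.23. Of 14 genes of ATF4 and unfolded protein stress, which can also induce Ddit4 and Ero1l, 0 were called without PI3Kdi and 1 with it, in the upward direction (medians 0.11 and 0.17). Called higher were 0.0678% and 0.437% of all genes. Atf5, a transcription factor of that response, rose with PI3Kdi from 3.95, 4.35 and 4.88 FPKM in WT to 6.95, 7.21 and 7.53 FPKM in FOXO1-GFP KO CTL (0.71 ± 0.14, limma adjusted p = 0.0281, or 0.0507 with the block), and Hspa5, the most abundant of that list, had -0.04 and -0.03. The count of 3 list genes by genotype with PI3Kdi was 0 without WT+PI3Kdi replicate 2, 2 without WT+PI3Kdi replicate 3, and 1 without WT+PI3Kdi replicate 1 or any FOXO1-GFP KO+PI3Kdi library. In response to PI3Kdi, 0 genes of the 4 lists were called in either genotype. With the block 2 were called in each, Epas1, which encodes HIF-2α, lower (log2 fold changes -0.63 and -0.65, limma adjusted p = 0.0170 and 0.0140) and Cxcr4, a chemokine receptor, higher (0.95 and 0.73, limma adjusted p = 0.00123 and 0.00678). Of all genes, that fit called 1.05% (WT) and 0.964% (FOXO1-GFP KO) lower and 1.53% and 1.82% higher, so these counts do not set the lists apart.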

How the data were processed

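Per the labels and the study's methods, 300 ng of RNA per sample went into stranded mRNA libraries, and the authors aligned reads to GRCm38.p6 with STAR (version 2.7.1a in the submitters' processing notes), counted them per gene, filtered low counts and scaled them with edgeR. The deposited values are FPKM for 13283 genes in 12 libraries. The steps between low values gave each depth: 97.5 to 99.5% of held-out values came out as whole reads within 0.006 FPKM, against at most 30.6% by chance. Reads shared with an overlapping gene can be lost or misassigned, and 2 members (Hif1a and Jmjd6) overlapped a gene on the same strand.

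Groups were compared by limma 3.58.1 (R 4.3.3) on log2(FPKM + 0.1), with 4 group means over all 12 libraries and a trended variance prior. A call needed a fold change over 1.5 and a p-value under 0.05 after Benjamini-Hochberg adjustment across the table. Coordinates are from GENCODE M21. Same-numbered libraries with and without PI3Kdi deviated together (correlations over 10373 genes 0.838, 0.596 and 0.678 in WT, 0.594, 0.603 and 0.780 in FOXO1-GFP KO), so a fit with that number as a block within genotype (statmod 1.5.0, consensus correlation 0.757) was an alternative. Across genotypes the same numbers deviated together unevenly. Without and with PI3Kdi the correlations were 0.272 and 0.320 for replicate 1, -0.409 and -0.315 for replicate 2, and 0.730 and 0.508 for replicate 3. Whether a pair shares a mouse is not given in the sources used here. Tested on simulated data of 13283 genes with 200 changed, the fit without a block recovered 98% for FOXO1-GFP KO against WT without PI3Kdi and 97.5% with it.

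The members and lists were chosen with earlier results of these data known. Named genes were all members present, Foxo1, the genes of the 4 pathway lists called in any comparison or with the largest median FPKM of their list, and markers that moved with genotype. Promoters were shown for up to 5 members with the largest fall and 2 with the smallest change at a mean of at least 10 FPKM. Plod2 was among the 5, with no sequence shown. Alternatives covered the pseudocount, low-value filter, scaling, samples in the fit, voom, the block and leaving out libraries.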

Additional observations from a re-analysis of the deposited data

How the results depend on the processing

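For FOXO1-GFP KO against WT without PI3Kdi, the 6 members called became 13 with a replicate block shared by all groups and 0 with only the groups compared in the fit, which then had fewer libraries, and ranged from 0 to 9 when a library or pair was left out. With PI3Kdi, the 9 became 4 with only the groups compared and ranged from 3 to 7. The other alternatives gave 5 to 8 and 7 to 10 members. Of all genes, 0.196% were called lower without PI3Kdi and 0.798% with it when the block within genotype was used. Voom without the block called 0.331% and 1.01% lower. For the other settings, the shared block among them, and with libraries left out, no share over all genes was worked out. Those member counts cannot be set against the whole table. For the response to PI3Kdi in each genotype, 0 members became 2 and 2 with the replicate block within genotype, whether as a random effect, as fixed terms, with voom, or with the length trend removed, an alternative chosen after seeing the data. Leaving out libraries gave 0 to 2 and 0 to 1. The difference of responses gave 0 throughout. For genes of the 4 pathway lists, genotype without PI3Kdi went from 0 to 1 with the block, voom, voom with the block, and the length trend removed without and with the block, and to 2 with the shared block, and stayed at 0 when libraries were left out. With PI3Kdi it went from 3 to 6 with the shared block and 1 with only the groups compared, and ranged from 0 to 3. The response to PI3Kdi went from 0 to 2 in each genotype with the block or fixed terms, to 4 in each by voom with the block, and to 2 (WT) and 3 (FOXO1-GFP KO) with the block and the length trend removed, and stayed at 0 when libraries were left out. These list counts covered 9 such fits in each genotype, against 12 for the members, so not every fit was covered. How the calls of Epas1 and Cxcr4 with the block fared without single pairs is not shown here. Where a count moved, the cause was not tested. No direction of a called value reversed. The replicate block within genotype changed the member calls named beside the results and no other member call. P4ha2 rested on as few as 10 reads in a library and Ak4 on 22.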
